A study of Mus musculus with 6 samples.

Results

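Complement and coagulation proteins made by the liver were compared between 3 control and 3 mutant livers, each from a 3-week-old male mouse and measured on 1 Affymetrix expression array. Controls were Srf loxP/+, with 1 floxed allele of Srf, and mutants Srf loxP/loxP, with 2. Both groups carried the AlfpCre transgene, in which albumin and alpha-fetoprotein regulatory elements drive Cre recombinase in cells of the hepatocyte lineage, so the controls too could lose 1 copy of Srf. Srf encodes serum response factor, a transcription factor of cytoskeletal and growth-response genes. The list held 39 genes, chosen by name, and its members were all probe sets annotated with exactly 1 gene symbol, that of a listed gene. For 36 of the 39 genes such probe sets were present, 48 in all, and each of them passed the filter on dim signals, among 27022 probe sets and 13144 genes in the whole table. C3, C4b and Cpb2 were not analysed here; C4b shares its probe set with C4a. Each gene is represented by its brightest probe set unless another is named, and signals are given as log2 of array brightness after scaling.

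Complement is a chain of plasma proteases and pore-forming proteins. It is started by antibody, by sugar-binding lectins or spontaneously, and ends in the membrane attack complex, a pore assembled from C5b, C6, C7, C8 and C9 in the target membrane. Coagulation is a second protease chain, in which factors made mostly by hepatocytes convert prothrombin to thrombin and fibrinogen to fibrin. Antithrombin, protein C and related proteins restrain it, and plasmin dissolves the clot. Hepatocytes secrete most of these proteins, and their genes respond to liver-enriched factors such as HNF1, HNF4 and C/EBP, and several of them to interleukin-6 through STAT3.

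The mutant arrays were less alike than the controls, with correlations of 0.827 to 0.907 among mutants and 0.937 to 0.941 among controls over the probe sets tested. Srf gave 5.31, 5.14 and 5.11 in control mice, against 4.17, 5.24 and 2.54 for mutants 1, 2 and 3 (limma adjusted p = 0.398), so the library labelled mutant 2 lay within the control range. Whether this probe set lies in the deleted part of the gene was not determined here, so it does not check the labels. That library was also the mutant nearest to the controls for many genes below, and the values without it are given where they change a call.

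The members split by role into 15 complement genes, 13 clotting factor genes and 8 anticoagulant or fibrinolytic genes. In the mutant livers 14 of the 15 complement genes had a lower mean, with a median log2 difference of -0.76 between mutant and control. The clotting factors were balanced, with 6 of 13 lower and a median of 0.13, and the anticoagulant and fibrinolytic genes had 3 of 8 lower and a median of 0.07. Over all 13144 genes the median was 0.06, and 6033 had a lower mean in mutants. No member passed the test across all probe sets (limma, Benjamini-Hochberg adjusted p under 0.05), where 0.114% of all genes did. At an unadjusted p under 0.05, 10 members were lower and 1 was higher, against 7.01% and 7.36% of all genes. The lower ones were 8 complement genes and the clotting genes F11 and Klkb1. All 3 mutant arrays lay below all 3 controls for 13 of the 36 members, and above them for 4, where these shares were 10.8% and 14.1% of all genes. The 13 lower members comprised 10 complement genes and 3 clotting factors. On the deposited scaling, which lowers the median of all genes to -0.39, the split was 13 lower and 0 higher, against 20.4% and 3.08% of all genes. The classes also differed in brightness, with highest control means of 11.9 for complement, 12.7 for clotting and 12.4 for anticoagulant and fibrinolytic genes. F2, Fga, Fgb, Fgg, Kng1, Plg, Serpinc1 and Vtn were brighter in controls than every complement gene. Their differences were positive on the scaling used here and negative on the deposited one. The part of brightness in the split by role was not tested. Differences below -1 were found for 9 members, against 9.11% of all genes, and above 1 for 0 members, against 7.87%. The complement median was -1.12 without mutant 2, -0.52 without mutant 1 and -0.28 with an RNA quality ratio, described further on, as covariate. Without mutant 2, 5 members passed the threshold (C8a, C8b, C9, Masp1 and F11), but so did 308 of all genes (2.34%).

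**Figure D1:**
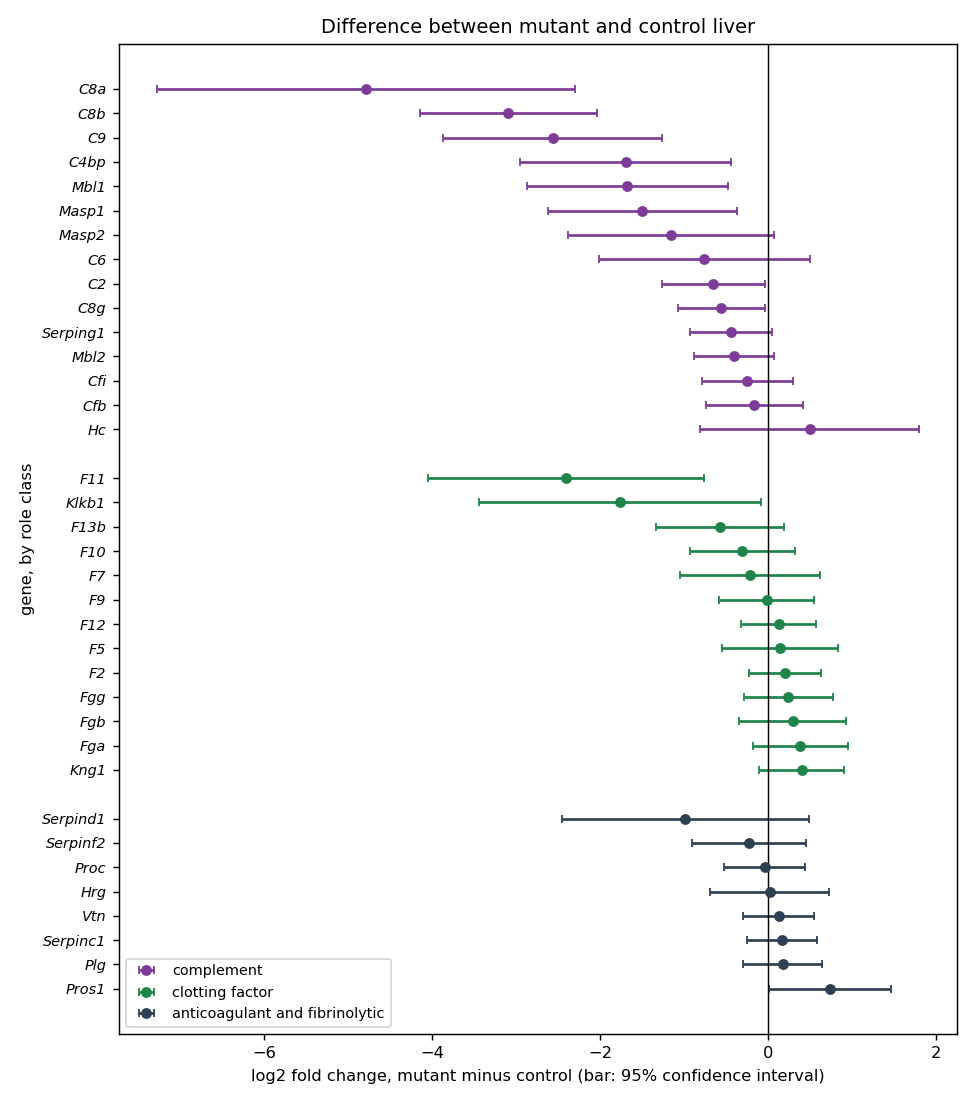
Log2 fold change (mutant minus control) on the horizontal axis for the 36 measured genes, grouped by role class on the vertical axis; points are fitted values and bars 95% confidence intervals for each gene alone, with n = 3 arrays per group. C8a, C8b and C9 lie farthest to the left, at -4.79, -3.09 and -2.57, while the fibrinogen genes lie between 0.24 and 0.39 (-0.21 to -0.064 on the deposited scaling).

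The promoters of the genes with the largest differences are shown with that of Fgb, a fibrinogen gene with a difference of 0.30. RefSeq promoter entries (GRCm38.p6) were found for 30 of the 39 listed genes. The 250 bases before the annotated start are printed 5′ to 3′ on the gene's strand, in lower case. Capitals mark matches on either strand to 4 motifs: the HNF1 motif GTTAAT, the C/EBP motif TTGCNNAA, the STAT motif TTCNNNGAA and the HNF4 core CAAAGTCCA.
C8a, chr4:104876399-104876648, minus strand: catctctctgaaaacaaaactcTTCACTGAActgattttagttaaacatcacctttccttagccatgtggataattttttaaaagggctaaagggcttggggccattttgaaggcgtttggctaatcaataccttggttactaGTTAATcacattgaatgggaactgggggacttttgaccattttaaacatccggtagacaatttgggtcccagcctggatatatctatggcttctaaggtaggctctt
C8b, chr4:104766067-104766316, plus strand: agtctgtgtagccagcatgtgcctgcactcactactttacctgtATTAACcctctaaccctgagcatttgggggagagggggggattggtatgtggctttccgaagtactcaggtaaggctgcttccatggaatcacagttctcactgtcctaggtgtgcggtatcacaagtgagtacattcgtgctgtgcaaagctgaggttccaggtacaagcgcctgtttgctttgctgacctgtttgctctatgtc
C9, chr15:6445096-6445345, plus strand: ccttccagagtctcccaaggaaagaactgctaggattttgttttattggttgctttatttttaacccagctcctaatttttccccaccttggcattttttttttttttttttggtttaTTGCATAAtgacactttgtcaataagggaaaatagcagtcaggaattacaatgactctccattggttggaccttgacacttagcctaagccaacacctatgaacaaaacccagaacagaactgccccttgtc
F11, chr8:45262032-45262281, minus strand: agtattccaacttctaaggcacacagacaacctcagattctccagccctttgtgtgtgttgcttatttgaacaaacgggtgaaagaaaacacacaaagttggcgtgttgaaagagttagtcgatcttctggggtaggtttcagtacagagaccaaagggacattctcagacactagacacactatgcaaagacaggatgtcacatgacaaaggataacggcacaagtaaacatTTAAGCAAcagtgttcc
Fgb, chr3:83049864-83050113, minus strand: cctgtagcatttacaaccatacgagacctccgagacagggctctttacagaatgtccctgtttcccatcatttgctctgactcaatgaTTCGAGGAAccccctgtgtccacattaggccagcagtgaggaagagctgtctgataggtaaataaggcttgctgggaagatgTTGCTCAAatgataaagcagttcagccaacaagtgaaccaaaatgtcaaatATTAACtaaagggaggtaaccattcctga
The HNF1 motif was found 107 bases before the start of C8a, 206 before that of C8b and 29 before that of Fgb. The C/EBP motif was found in C9, F11 and Fgb, and the STAT motif in C8a and Fgb. Of 31 promoter entries of the listed genes, 8 held the HNF1 motif, which is 25.8% against 6.43% of 32851 promoters. The C/EBP motif was in 8 of 31 (9.56% of all promoters) and the STAT motif in 6 of 31 (7.02%). The HNF4 core matched 0 of the 31 and 0.384% of all promoters. The CArG box, the element bound by SRF, matched 0 of the 31 and 1.47% of all promoters in this window. A match is a string of letters, not evidence of binding, and F11 and Fgb, with differences of -2.41 and 0.30, both held the C/EBP motif.

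The genes of the membrane attack complex held the members with the 3 most negative differences. C8a and C8b encode the alpha and beta chains of C8, which insert into the membrane. C8a (1428012_at) gave log2 signals of 11.21, 10.94 and 10.39 in the control livers, and for mutants 1, 2 and 3 it gave 3.42, 8.54 and 6.22. Each mutant lay at least 1.86 below the lowest control, and mutant 1 was close to the background estimate of 3.04. The log2 difference was -4.79 (SE 1.08, 95% interval -7.28 to -2.30, limma adjusted p = 0.203), or 27.7-fold lower, and only 11 of the 13144 genes had a more negative difference. C8b (1427472_a_at) gave 10.76, 10.60 and 9.83 in controls and 6.27, 7.79 and 7.84 in mutants. Its groups were 1.99 apart, a wider gap than that of C8a. The difference of -3.09 (SE 0.46, 95% interval -4.15 to -2.04) was 8.54-fold and had the smallest adjusted p of the members, 0.0757 with limma. It passed without mutant 1 (adjusted p = 0.0091) and without mutant 2 (0.0295), and not without mutant 3 or any 1 control.

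C9 (1422815_at), the protein that polymerises into the wall of the pore, gave 11.47, 10.54 and 10.44 in controls and 6.97, 9.28 and 8.52 in mutants. The mutants lay below every control, with mutant 1 lowest. The difference was -2.57 (SE 0.57, limma adjusted p = 0.193), 5.92-fold, and it passed only when mutant 2 was left out (adjusted p = 0.0374), as did that of C8a (0.0161). C8g, which encodes the gamma chain of C8 and belongs to another protein family, the lipocalins, gave 11.29, 11.31 and 11.23 in controls and 10.63, 11.07 and 10.46 in mutants. Its groups did not overlap either, but the difference was -0.55 (SE 0.22, limma adjusted p = 0.352), with an interval of -1.07 to -0.04 that does not meet that of C8b. No test of the difference between the subunits was made. C6, which binds C5b first, was the dimmest member, with control signals of 6.45, 5.08 and 5.05 and mutant signals of 3.78, 5.48 and 5.04, and its groups overlapped. Hc, the gene of C5, had 1 low control, at 10.45, 8.57 and 10.85, with mutants at 10.31, 10.99 and 10.07. It was the only complement member with a positive difference (0.50, 95% interval -0.81 to 1.80), and that was -0.20 without control 2.

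The 4 genes of the lectin pathway all had lower means in mutants. Mbl1 and Mbl2 encode mannose-binding lectins A and C, which recognise microbial sugars. Mbl1 (1419578_at) gave 10.36, 10.33 and 10.10 in controls and 7.26, 9.48 and 9.03 in mutants. Its log2 difference was -1.67 (SE 0.52, limma adjusted p = 0.303), while that of Mbl2 was -0.40 (SE 0.21, adjusted p = 0.394), and neither gene's groups overlapped. The difference of Mbl1 was -1.01 without mutant 1 and -0.32 with the RNA quality covariate. Masp1 encodes a protease that the lectins carry. Its brightest probe set (1419677_at) gave 9.51, 9.11 and 9.15 in controls and 6.65, 8.80 and 7.84 in mutants, a difference of -1.50 (SE 0.49, limma adjusted p = 0.315). It passed without mutant 2 (adjusted p = 0.0475), was -0.94 without mutant 1 and was -0.28 with the RNA quality covariate. The other 4 probe sets of Masp1 had differences between -0.24 and -0.73 with overlapping groups. Masp1 yields several proteins by alternative splicing, and which of them each probe set detects was not examined here. Masp2, the protease that cleaves C4 and C2, had control signals of 9.09, 9.03 and 9.06 and mutant signals of 6.64, 9.04 and 8.03. Mutant 2 lay within the control range, and the difference of -1.16 had an interval of -2.38 to 0.07. A dimmer Masp2 probe set (1451759_at) gave 7.54, 7.26 and 7.91 in controls and 5.31, 7.68 and 8.12 in mutants. Only the first of these mutants lay below the controls, and the last lay above them. The difference of this probe set was -0.53 (limma adjusted p = 0.700), so the size of the Masp2 difference depended on the probe set.

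Among the complement regulators, C4bp (1418037_at), the C4b-binding protein that limits the classical and lectin pathways, gave 11.48, 11.41 and 11.25 in controls and 8.32, 10.78 and 9.96 in mutants. All mutants were lower, with a difference of -1.69 (SE 0.55, limma adjusted p = 0.311) that was -1.01 without mutant 1 and -0.24 with the covariate. Serping1, the C1 inhibitor, had -0.44 with groups 0.10 apart, and Cfi, the protease that inactivates C3b and C4b, had -0.25 with overlapping groups. Of the genes for the convertases, the enzymes that cleave C3 and C5, C2 (1441912_x_at) had -0.65 (SE 0.26, limma adjusted p = 0.353) with groups 0.05 apart. Another probe set of C2 (1416051_at) had -0.83 and the third (1457664_x_at) -0.30. Sets with the suffix x_at, the brightest one included, can detect related transcripts. Cfb, factor B of the alternative pathway, had -0.16 (95% interval -0.74 to 0.42). Mutant 2 was the highest of the 6 arrays for Cfb, at 10.94.

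**Figure D2:**
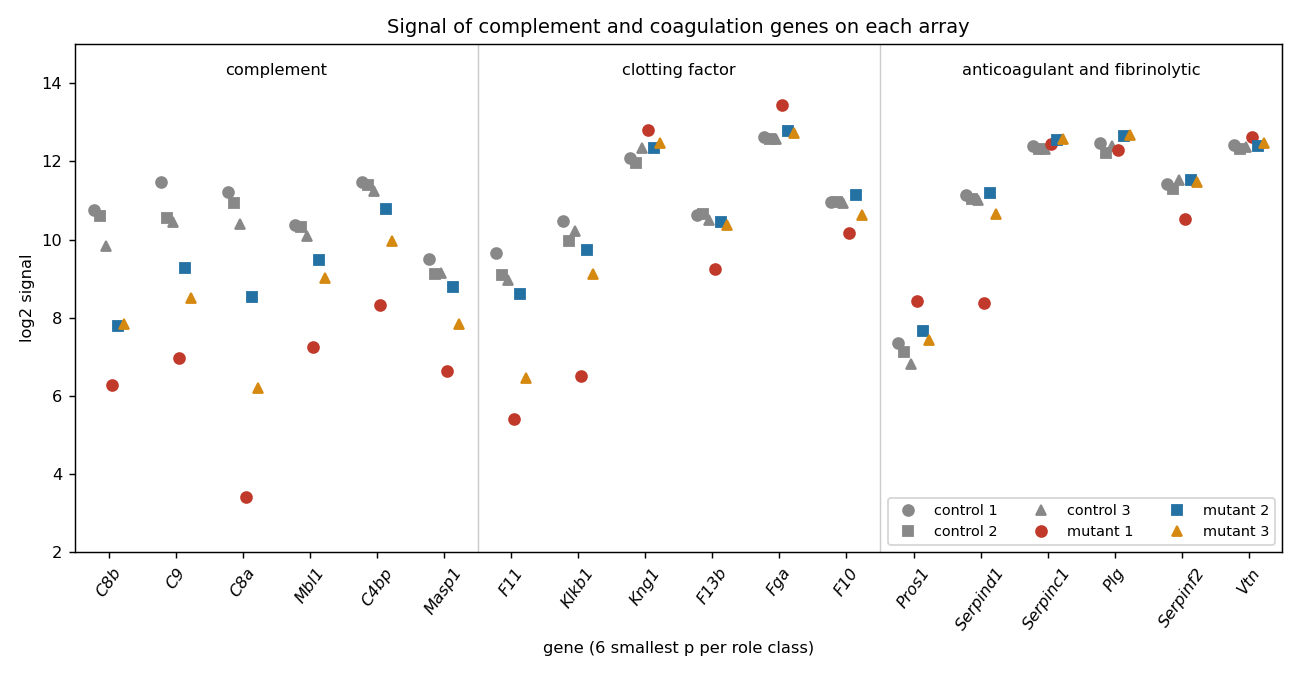
Log2 signal (vertical axis) on each of the 6 arrays for the 6 genes with the smallest p in each role class (horizontal axis); grey symbols are controls 1 to 3 and coloured symbols mutants 1 to 3, and each point is 1 array. For the 6 complement genes every mutant lies below every control, with mutant 1 lowest, whereas Serpinc1 stays between 12.32 and 12.56 on all arrays.

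The contact system starts clotting on charged surfaces and comprises factors XI and XII, prekallikrein and kininogen. F11 (1451788_at) gave 9.66, 9.09 and 8.96 in controls and 5.41, 8.61 and 6.45 in mutants, so that mutants 1 and 3 were far below the controls and mutant 2 lay 0.34 under the lowest of them. The difference was -2.41 (SE 0.71, 95% interval -4.05 to -0.77, limma adjusted p = 0.296), 5.31-fold, and it passed without mutant 2 (adjusted p = 0.0128). Klkb1 (1449034_at), the gene of plasma prekallikrein and a close relative of F11, gave 10.47, 9.98 and 10.22 in controls and 6.52, 9.73 and 9.13 in mutants. Its difference was -1.76 (SE 0.73, limma adjusted p = 0.356), -0.79 without mutant 1 and 0.064 with the covariate.

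Of the other contact genes, F12 and the brightest probe set of Kng1 did not share this direction. F12 had a difference of 0.13 (95% interval -0.32 to 0.58). Kng1 (1416676_at), which encodes the kininogen that releases bradykinin, gave 12.07, 11.96 and 12.35 in controls and 12.79, 12.33 and 12.47 in mutants, with a difference of 0.40 (SE 0.22, limma adjusted p = 0.414). The groups of this probe set overlapped. A second Kng1 probe set (1426045_at) went the other way, with control signals of 11.04, 11.14 and 11.29 and mutant signals of 10.68, 11.01 and 10.67. Its mutants all lay below the controls by a gap of 0.03, with a difference of -0.37 (limma adjusted p = 0.419). The 2 probe sets thus disagree in sign, and the 95% interval of each included 0.

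Fibrinogen consists of the products of Fga, Fgb and Fgg. Fga (1424279_at) gave 12.63, 12.58 and 12.58 in controls and 13.45, 12.77 and 12.72 in mutants, with all mutants higher by a gap of 0.10. Its difference was 0.39 (SE 0.24, limma adjusted p = 0.460). Fgb and Fgg had 0.30 and 0.24, with overlapping groups. In each of the 3 genes mutant 1 was highest, at 13.45, 13.62 and 13.08, and the others lay within 0.18 of the control mean. Their sign depended on scaling: on the deposited scaling the differences were -0.064, -0.15 and -0.21, and after quantile normalization those of Fgb and Fgg were -0.0018 and -0.14. F13b (1419131_at), the carrier subunit of the factor that cross-links fibrin, gave 10.63, 10.66 and 10.50 in controls and 9.25, 10.46 and 10.37 in mutants, and its difference of -0.57 (SE 0.33, limma adjusted p = 0.435) was -0.19 without mutant 1.

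The vitamin K-dependent proteins carry gamma-carboxyglutamate residues that bind calcium and membranes. Their 6 genes, F2, F7, F9, F10, Proc and Pros1, had a median difference of -0.03. F2, prothrombin, was 0.20 higher with groups 0.09 apart (95% interval -0.22 to 0.63). F9, the factor lacking in haemophilia B, had -0.02 (95% interval -0.58 to 0.55), and F7, which starts clotting with tissue factor, had -0.22 (-1.05 to 0.61). F10 (1449305_at), the factor that converts prothrombin, gave 10.97, 10.96 and 10.94 in controls and 10.17, 11.15 and 10.64 in mutants, spanning both sides of the controls (difference -0.30, SE 0.27, limma adjusted p = 0.587). The other 2 probe sets of F10 had 0.17 (1418992_at) and 0.03 (1418993_s_at), so the direction of F10 was not settled. F5, the cofactor of factor X, had 0.14 and, on its second probe set, 0.02.

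Among the anticoagulant genes, Pros1 (1426246_at), protein S, was the only member of the 36 that was higher at an unadjusted p under 0.05. It gave 7.36, 7.13 and 6.82 in controls and 8.43, 7.67 and 7.43 in mutants, and all mutants were above all controls by a gap of 0.07. The difference was 0.74 (SE 0.32, 95% interval 0.01 to 1.47, limma adjusted p = 0.361), 1.67-fold, and 0.45 without mutant 1. Its partner Proc, protein C, had -0.04 (95% interval -0.52 to 0.44). Serpinc1 (1417909_at), antithrombin, gave 12.38, 12.32 and 12.32 in controls and 12.44, 12.54 and 12.56 in mutants, a difference of 0.17 (SE 0.18, limma adjusted p = 0.654). On the deposited scaling it was -0.28. Serpind1 (1418680_at), heparin cofactor II, gave 11.13, 11.05 and 11.004 in controls and 8.37, 11.18 and 10.66 in mutants. Its difference of -0.99 (SE 0.64, limma adjusted p = 0.468) was -0.14 without mutant 1, the lowest array; mutant 3 also lay below the controls and mutant 2 above them.

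No fibrinolytic gene passed the test. Plg (1416729_at), plasminogen, gave 12.46, 12.22 and 12.38 in controls and 12.28, 12.64 and 12.66 in mutants (difference 0.17, SE 0.21, limma adjusted p = 0.682). Serpinf2 (1417498_at), the inhibitor of plasmin, gave 11.42, 11.29 and 11.51 in controls and 10.54, 11.53 and 11.48 in mutants, with mutant 1 alone below the controls (difference -0.22, adjusted p = 0.717). Vtn (1420484_a_at), vitronectin, which binds the plasminogen activator inhibitor, gave 12.42, 12.33 and 12.37 in controls and 12.63, 12.40 and 12.47 in mutants (difference 0.13, adjusted p = 0.748). A dimmer Vtn probe set (1455098_a_at) had -0.03. Hrg, histidine-rich glycoprotein, which binds plasminogen and heparin, had 0.02 with an interval of -0.68 to 0.73. In mutant 1 Hrg and Serpinf2 were shifted from their control means by -0.67 and -0.87. The intervals were -0.30 to 0.65 for Plg, -0.30 to 0.55 for Vtn and -0.90 to 0.46 for Serpinf2. On the deposited scaling Plg and Vtn had -0.28 and -0.32.

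Several members are neighbours in the genome, with no other protein-coding gene between them in the RefSeq gene order. The adjacent pair C8b and C8a had -3.09 and -4.79, and the pair F11 and Klkb1 had -2.41 and -1.76. Fgg, Fga and Fgb, also in a row, had 0.24, 0.39 and 0.30, and F7 and F10 had -0.22 and -0.30. Cfb and C2 had -0.16 and -0.65. The intervals of F7, F10, Cfb and the 3 fibrinogen genes included 0.

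The size of the complement difference varied with the array. The median shift of the 15 complement genes from their control mean was -1.74, -0.24 and -1.02 in mutants 1 to 3, where the controls lay between -0.11 and 0.10. The corresponding medians of the clotting factors were -0.36, 0.18 and 0.06, and those of the anticoagulant and fibrinolytic genes -0.18, 0.16 and 0.17. Of the 13 members whose mutants all lay below the controls, 10 had mutant 1 as the lowest mutant and 11 had mutant 2 as the highest. These counts were 25 and 21 for all 36 members, and 5477 and 4260 for all 13144 genes. The order mutant 1, mutant 3, mutant 2 from low to high held for 16 of the 36 members (44.4%) and for 23.1% of all genes. Overall brightness before scaling followed that order too, with trimmed means of 37.3, 42.5 and 58.1 for mutants 1, 3 and 2 against 55.2 to 69.9 in controls. The mean log2 ratio of 3' to 5' signal of Actb, Gapdh and Pcx, which is higher in partly degraded RNA, likewise ran 2.18, 1.57 and 1.18 for mutants 1, 3 and 2 against 0.78 to 1.22 in controls (two-sided exact permutation p = 0.2, n = 3 per group, where 0.1 is the smallest possible). With that ratio as a covariate the median of the complement genes was -0.28, and C8a, C8b, C9 and F11 had -1.76, -1.97, -1.17 and -0.60. The adjusted p of C8b was 0.361 (limma) in that fit. Without mutant 1 the complement median was -0.52, and C8a, C8b and C9 had -3.47, -2.58 and -1.92.

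**Figure D3:**
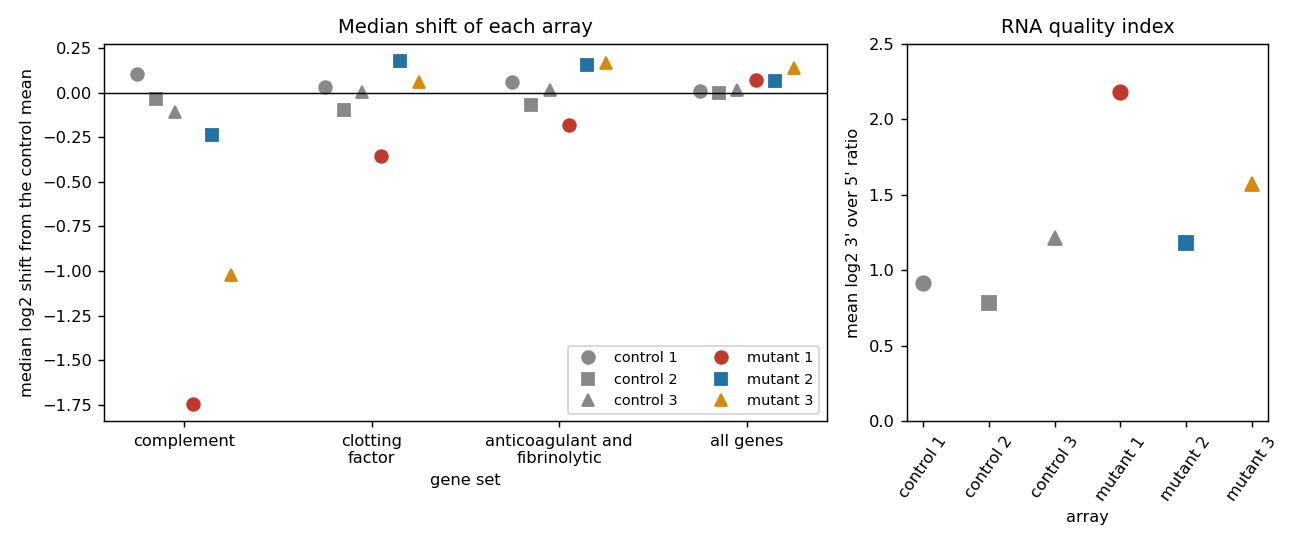
Left, the median over each gene set of the log2 shift from the control mean (vertical axis) for each array, by gene set (horizontal axis); right, the mean log2 ratio of 3' to 5' signal over Actb, Gapdh and Pcx on each array. Grey symbols are controls and coloured symbols mutants 1 to 3: mutant 1 has the lowest complement shift (-1.74) and the highest ratio (2.18), and mutant 2 lies nearest the controls in the complement shift.

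Hepatocyte markers were present on all arrays, and 10 of the 12 listed were measured. For 9 of the 10, Alb among them, all mutants lay above all controls, against 14.1% of all genes. On the deposited scaling this held for 0, against 3.08% of all genes, and 8 of the 10 were lower. After quantile normalization it held for 2 of the 10, against 12.3% of all genes, and the median of the 10 was 0.06. Their median difference was 0.37 with the scaling used here and -0.08 on the deposited one, against 0.06 and -0.39 for all genes. Their summed linear signal was 56157 to 63779 in controls and 69626 to 84428 in mutants. In whole liver, fewer cells of a type and less RNA per cell cannot be told apart.

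Markers of other liver cells were compared as summed linear signals. Those of Kupffer cells and macrophages (14 of 14 measured) were 2044 to 2871 in controls and 1619 to 2259 in mutants. The stellate cell and fibroblast sum (13 of 13) was 3638 to 3964 in controls, and mutants 1, 2 and 3 had 1196, 4406 and 2211, so it was lowest in mutant 1, like the complement genes. The median difference of these 13 genes was -1.14, more negative than that of the complement genes. For 3 of the 13, Col3a1, Col1a1 and Col1a2, the collagens of fibroblasts, all mutants lay below all controls, against 10.8% of all genes. Their differences were -3.56, -2.53 and -1.93 (limma adjusted p from 0.296 to 0.307). The mutant mean of Col1a1 was below the background estimate. Of the 13 genes 11 had a lower mean in mutants, among them Dcn, a bright member of the sum, with -0.05. Endothelial markers (14 of 14) followed that order too, with 672, 2328 and 1112 in mutants 1 to 3 against 1199 to 1858 in controls. The sums were 71.7 to 84.6 and 52.3 to 119 for cholangiocytes (6 of 10) and 465 to 1005 and 334 to 777 for erythroid cells (6 of 12). For megakaryocytes and platelets (11 of 14) they were 230 to 352 and 261 to 358, for neutrophils (8 of 10) 163 to 349 and 154 to 540, and for lymphocytes (6 of 12) 60.1 to 78.1 and 42.5 to 60.0. Pkhd1 and Cd3g were at the floor in mutant 1 and Camp and Ltf in mutant 3. No marker passed the test, and the part of these cells in the results was not tested.

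Complement genes outside the list, many of them made by macrophages or other cells, did not pass the test. Of 31 listed, 20 were measured, with a median of -0.26 and 0 past the threshold (limma). At an unadjusted limma p under 0.05, 1 was lower and 1 higher, against 7.01% and 7.36% of all genes. C1ra, a protease of the C1 complex, gave 9.54, 9.36 and 9.63 in controls and 7.60, 9.26 and 8.62 in mutants (difference -1.02, adjusted p = 0.344). Colec10, another lectin that activates the pathway, had -1.14 and Vsig4, a complement receptor of Kupffer cells, -0.72, both with overlapping groups. Cd46, a regulator on cell membranes, was below the background estimate in controls.

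Of 32 further clotting and fibrinolysis genes 21 were measured, with a median of -0.17 and 0 past the threshold (limma). At an unadjusted limma p under 0.05, 2 were lower and 0 higher, against 7.01% and 7.36% of all genes. Tfpi2, a protease inhibitor, had -1.66 (SE 0.55, adjusted p = 0.317) and Hgfac, an activator of hepatocyte growth factor related to factor XII, -1.20 (adjusted p = 0.350), both with mutants below all controls. F2r, the thrombin receptor, had -0.48 (adjusted p = 0.366). F3, tissue factor, was at the floor in mutants 1 and 2 and at 3.76 in mutant 3.

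All 14 genes for gamma-carboxylation and secretion of clotting factors were measured, with a median of -0.11 and 0 past the threshold (limma). At an unadjusted limma p under 0.05, 1 was lower and 0 higher, against 7.01% and 7.36% of all genes. Pdia3, a disulfide isomerase of the endoplasmic reticulum, had -1.09 (SE 0.39, adjusted p = 0.331). Ggcx, the vitamin K-dependent carboxylase, had -1.46 (SE 0.78, adjusted p = 0.410) with overlapping groups. Asph, which hydroxylates residues in clotting factor domains, had -0.49 and Pcsk5, a proprotein convertase, 0.66.

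Regulators of hepatocyte genes were measured for 24 of 26, with a median of -0.09 and 0 past the threshold (limma). At an unadjusted limma p under 0.05, 3 were lower and 1 higher, against 7.01% and 7.36% of all genes. Cebpd, a C/EBP factor of the acute phase, gave 6.30, 6.56 and 6.03 in controls and 7.31, 7.26 and 7.88 in mutants, a difference of 1.19 (SE 0.28, adjusted p = 0.221), which was 0.74 with overlapping groups on the deposited scaling. Hnf4a had 0.30 (-0.15 on the deposited scaling) and Cebpa -0.11 (-0.56 there, with all mutants below the controls), and neither passed the test. Dbp, a clock-controlled factor, had -2.55 (adjusted p = 0.292) and Ghr, the growth hormone receptor, -2.26 (adjusted p = 0.326), both with mutants below all controls. Nr0b2, the repressor SHP, had -3.69 with overlapping groups and an SE of 1.52.

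**Figure D4:**
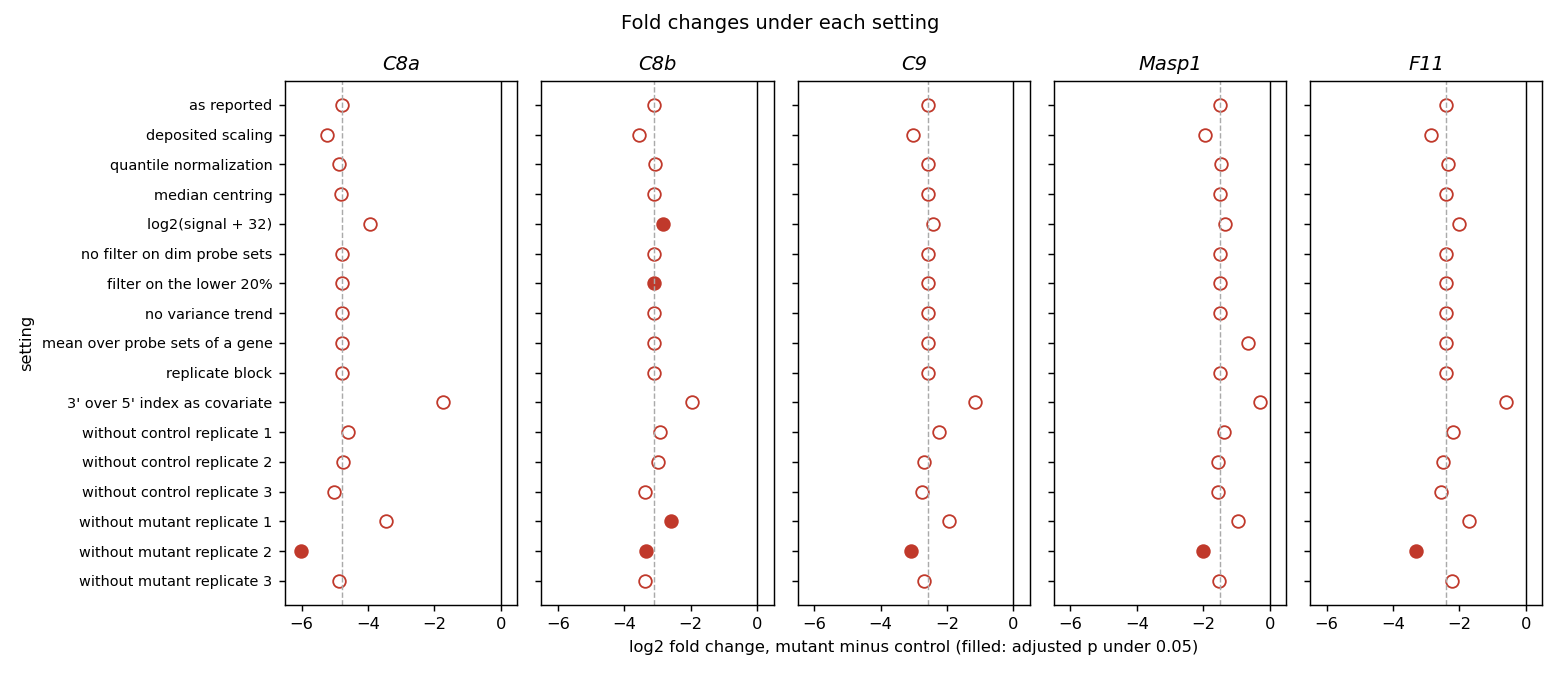
Log2 fold change (mutant minus control, horizontal axis) of C8a, C8b, C9, Masp1 and F11 under each setting (vertical axis); filled circles have an adjusted p under 0.05 and the dashed line is the reported value. All circles lie left of 0; C8b is filled in 4 of 16 alternatives and the other genes in 1 each, without mutant 2.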

How the data were processed

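Per the labels' protocols, biotin-labelled total liver RNA was hybridised to arrays, and the design text gives separate mice. The deposited table holds linear intensity values, made with GCOS per the submitters' processing notes; the algorithm and target intensity behind them are not stated in the labels. Each array was rescaled to an equal 2% trimmed mean (37.3 to 69.9 before), floored at 1 and taken to log2, and the lowest 40% of probe sets by overall mean were left out. Mutants and controls were compared with limma 3.58.1 in R 4.3.3 (trended variance, two-sided, adjusted over 27022 probe sets), after the step was tested on simulated data. The simulated noise was independent and of equal spread in both groups. It thus did not check the fit for genes such as C8a, with an SD of 0.42 in controls and 2.56 in mutants. The number of arrays limits precision. Background was the 95th percentile of 83 receptor probe sets not expected in liver (2.87 in controls, 3.04 in mutants). Symbols were updated through Entrez identifiers. Values on every array are given for the 6 members of each class with the smallest p and, outside that rule, for C8g, C6, Hc and Masp2. Up to 4 genes of each further list are named, besides Hnf4a, Cebpa and 4 stellate cell markers, picked after their values were seen. Members and lists were chosen with earlier results of these data known, and the branches within classes and the motifs after the values were seen. The alternatives tried are given with their effects in the closing section.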

Additional observations from a re-analysis of the deposited data

How the results depend on the processing

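C8a, C8b, C9, C8g, C2, C4bp, Mbl1, Mbl2, Masp1, Serping1, F11 and Pros1 kept their direction under all 16 alternatives. The other 24 members changed sign in at least 1, always without passing the threshold, and F12 only on the deposited scaling. Some alternatives could not change a direction, because they leave each member's difference as it was. These are no filter, the 20% filter, no variance trend and the replicate block. The number of members past the threshold was 1 after log2(signal + 32), against 0.509% of all genes. It was also 1 with the lowest 20% of probe sets left out, against 0.232% (C8b in both). When each array was left out it was 0 to 5, with 1 without mutant 1, against 0.616% of all genes, and 5 without mutant 2, against 2.34%. Members with all mutants higher numbered 0 on the deposited scaling, against 3.08% of all genes, and 1 after quantile normalization, against 12.3%. Without single arrays they numbered 4 to 7. There were 7 without mutant 1 and 6 without mutant 2, against 20.2% and 26.2% of all genes. The medians of the clotting and of the anticoagulant and fibrinolytic genes were -0.32 and -0.38 on the deposited scaling, -0.14 and -0.24 after quantile normalization, and -0.02 to 0.18 and -0.0048 to 0.15 without single arrays; with the 3' over 5' ratio as covariate the latter was 0.34. The deposited scaling moves every member by the same -0.45, so its sign changes follow from the size of each difference. Relative to all genes, the complement, clotting and anticoagulant medians were -0.82, -0.15 and -0.26 after quantile normalization and -0.37, 0.02 and 0.25 with the covariate, against -0.82, 0.06 and 0.01 as reported. On the deposited scaling the sign turned for F2 (-0.25), F5 (-0.31), F12 (-0.32), Fga (-0.064), Fgb (-0.15), Fgg (-0.21), Kng1 (-0.049), Plg (-0.28), Serpinc1 (-0.28), Vtn (-0.32) and Hrg (-0.43). After quantile normalization it turned for F2 (-0.20), Fgb (-0.0018), Fgg (-0.14), Kng1 (-0.0055), Plg (-0.21), Serpinc1 (-0.25), Vtn (-0.29) and Hrg (-0.23). With the ratio as covariate it turned for C6 (0.31), Cfb (0.22), Cfi (0.15), Masp2 (0.19), F7 (0.51), F9 (0.31), F10 (0.25), F13b (0.18), Fga (-0.016), Fgb (-0.25), Fgg (-0.089), Klkb1 (0.064), Proc (0.13), Serpind1 (0.66), Serpinf2 (0.31) and Vtn (-0.0096). Without single arrays the ranges that crossed 0 were -0.20 to 0.19 for F9, -0.12 to 0.084 for Proc, -0.20 to 0.95 for Hc, -0.049 to 0.39 for F5, -0.16 to 0.37 for Hrg, -0.38 to 0.016 for Cfb, -0.45 to 0.21 for F7 and -0.40 to 0.10 for Serpinf2. The cause of these changes was not tested. With the replicate number of the titles as a replicate block 0 members and 14 genes passed, against 15 genes without it; same-numbered arrays did not deviate together (correlations -0.04, 0.02 and 0.04), so the numbers were not taken as pairs. All genes past the threshold numbered 0 without the filter, 5 without the variance trend, 3 with the covariate, 21, 15 and 23 with the deposited, quantile and median scaling, 37 with the 20% filter, 67 with log2(signal + 32), and 1 to 308 without single arrays, with 308 without mutant 2.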
